A study of Mus musculus with 24 samples.

Results

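Kiz, Txnip, Tmem140, Tcp11l2 and Zdhhc14 are 5 of the 159 genes of M7core, the signature of the cGAS-STING pathway that the study defined. They were selected on a measured value: their log2 fold change after SN-011, a STING antagonist, was above 0 in heart, stomach, muscle and tongue alike. The count tables list 54532 genes in all. By Ensembl ID and GRCm38 position, from start to end of the annotated gene, they are Kiz (ENSMUSG00000074749, chr2:146855864-146970097), Txnip (ENSMUSG00000038393, chr3:96557957-96561883), Tmem140 (ENSMUSG00000057137, chr6:34863146-34874946), Tcp11l2 (ENSMUSG00000020034, chr10:84576626-84614359) and Zdhhc14 (ENSMUSG00000034265, chr17:5492557-5753811), all protein-coding and on the forward strand. Because the sign of this change chose the 5 genes, their changes after SN-011 are given below as a description, without a test. The study's list marks which M7core genes also belong to 3 established interferon modules, and 0 of the 5 do. It marks Txnip and Tmem140 as targets of RelB, a subunit of noncanonical NF-kB. They are therefore called the 5 rising M7core genes here, not interferon-module genes.

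All 24 samples came from Trex1-/- mice, which lack the DNA exonuclease TREX1 in every cell, so that self-DNA accumulates and activates cGAS and STING. Each of the 4 tissues had 3 samples of mice given SN-011 and 3 control samples. According to the sample labels, SN-011 was given at 5 mg/kg on 3 occasions per week for 4 weeks and the controls were untreated. The study's methods instead describe a higher dose given every day over a shorter course to mice about a month old, with a vehicle control; the sources differ, and both groups are compared as the labels name them. Wild-type mice were not analysed here, so neither group shows a level without the Trex1 deletion. No label says whether samples of one group came from separate mice or whether tissues shared a mouse, so the p-values measure only the spread between these samples. The RNA was poly(A) RNA of whole tissue, in which fewer cells of a type and less RNA per cell cannot be told apart.

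The 5 genes have no common function. Txnip encodes an alpha-arrestin that binds thioredoxin and restrains glucose uptake; its promoter is a textbook target of the glucose-sensing factors MondoA and ChREBP, and FoxO factors and glucocorticoids are also known to act on it. Kiz encodes kizuna, a centrosomal substrate of the mitotic kinase PLK1 that holds the pericentriolar material together. Zdhhc14 encodes a palmitoyltransferase of the DHHC family, which attaches palmitate to cysteines of other proteins. Tmem140 encodes a small membrane protein and Tcp11l2 a protein of the TCP11 family, and little is established about what either does. FoxO factors are transcription factors that insulin signaling keeps out of the nucleus. In heart and skeletal muscle they are known for inducing genes of protein breakdown and autophagy when insulin signaling falls, and in muscle glucocorticoids act on several of the same genes.

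The RefSeq promoter table (GRCm38.p6) held windows for 4 of the 5 genes, from 250 bases before to 50 after the start, and none for Zdhhc14. The bases upstream of the gene are shown for the 3 genes whose windows hold FoxO letters, which are rare among promoters; the NF-kB letters, also present in all of them, are common and are left unmarked. All 3 lie on the forward strand, and the capitals mark GTAAACA or its reverse complement TGTTTAC (FoxO), GAAA, any 2 bases and GAAA again (an interferon response element), and 2 copies of CACGNG separated by 5 bases (a carbohydrate response element).
Txnip, chr3:96557707-96557956: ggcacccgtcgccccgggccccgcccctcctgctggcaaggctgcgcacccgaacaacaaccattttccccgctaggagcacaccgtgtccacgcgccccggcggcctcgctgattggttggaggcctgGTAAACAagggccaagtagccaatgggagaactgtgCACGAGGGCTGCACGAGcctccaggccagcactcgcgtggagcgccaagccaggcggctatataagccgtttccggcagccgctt
Tmem140, chr6:34862896-34863145: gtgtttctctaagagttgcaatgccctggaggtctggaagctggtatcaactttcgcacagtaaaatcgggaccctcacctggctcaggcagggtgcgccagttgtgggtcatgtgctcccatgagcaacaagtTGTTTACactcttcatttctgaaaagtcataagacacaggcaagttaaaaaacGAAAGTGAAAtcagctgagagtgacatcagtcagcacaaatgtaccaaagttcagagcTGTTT
Kiz, chr2:146855630-146855863: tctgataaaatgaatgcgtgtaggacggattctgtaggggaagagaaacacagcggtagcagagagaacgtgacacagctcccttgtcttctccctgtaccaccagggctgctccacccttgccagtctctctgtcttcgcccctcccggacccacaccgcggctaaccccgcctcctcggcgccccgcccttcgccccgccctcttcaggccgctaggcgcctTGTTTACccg
The FoxO letters stood on the forward strand at -121 to -115 in Txnip, counted from the start base as 0. In Tmem140 they stood on the reverse strand at -116 to -110 and again across the start, where the printed bases end before the last letters, and in Kiz on the reverse strand at -26 to -20. Over all 32851 windows of the table, 3.65% held these letters, as did 4.79% of the 167 windows of M7core genes. The interferon letters occurred in Tmem140, at -63 to -54, and in 0 of the other 3 windows, whereas 36.5% of the M7core windows and 3.44% of all windows held them. The paired CACGNG letters, which are those MondoA and ChREBP are known to bind, occurred at -85 to -69 of Txnip and in 0.0487% of all windows; this pattern was searched after the Txnip window had been read. NF-kB letters (GGG and CC separated by 5 bases) were found in all 4 windows but also in 50.8% of all windows. The E-box CACGTG (7.15% of all windows) and the glucocorticoid response element (AGAACA and TGTTCT separated by 3 bases, 0.00913%) were in 0 of the 4. Both strands were searched for every pattern, and the only matches that overlapped were a pair of NF-kB matches on opposite strands of Txnip. A match describes letters and shows no binding. The Tcp11l2 window, chr10:84576697-84576996, lies downstream of the first annotated start of that gene, held NF-kB letters alone, and is not printed.

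**Figure D1:**
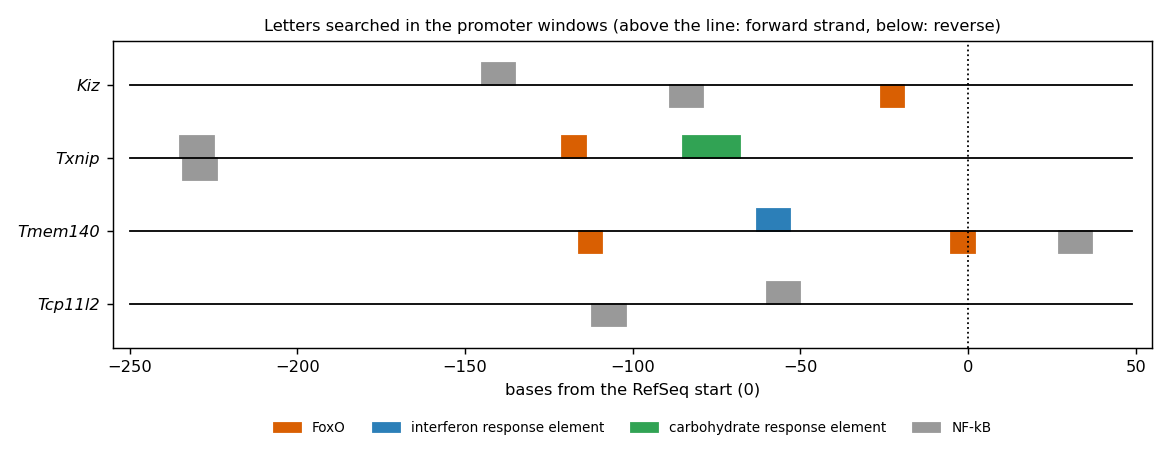
Positions of the letters searched in the promoter windows of Kiz, Txnip, Tmem140 and Tcp11l2, with the distance from the RefSeq start in bases on the horizontal axis and one line per gene; blocks above a line are on the forward strand and blocks below it on the reverse strand. Kiz, Txnip and Tmem140 hold FoxO letters, Tmem140 alone holds the interferon letters, and Txnip alone holds the carbohydrate response letters.

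Total counts were 14253416 to 18443329 per sample, and the lowest count of any of the 5 genes in any sample was 40, against the 3 counts taken as the limit of detection (0.163 to 0.210 CPM, counts scaled to the library total). Tissue markers matched the labels: summed over each marker list, cardiomyocyte genes reached at least 14631 CPM in every heart, fibre genes 191721 in every muscle, gastric gland genes 15457 in every stomach and squamous epithelial genes 10697 in every tongue. Some libraries stood apart. Control replicate 1 of every tissue was the only one with Xist (at least 3060 counts, against at most 20 elsewhere) and nearly lacked Ddx3y (at most 3 counts, against at least 825), so it came from a female and the others from males. Only 11546 genes were detected in muscle SN-011 replicate 2, and 19798 to 24264 in each other sample. Gastric gland markers summed to 2256 CPM in heart control replicate 2, 215 in heart control replicate 3, 886 and 374 in muscle control replicates 2 and 3, and 2102 and 1426 in tongue control replicates 2 and 3, while the SN-011 samples of these tissues had 5.03 to 54.9. Tongue control replicate 3 also had a neutrophil marker sum of 314 CPM, against 9.73 and 10.7 in the other control tongues. Erythroid markers had median log2 fold changes after SN-011 of 1.07 in heart, 1.11 in stomach, 1.17 in muscle and 1.47 in tongue over the 5 or 6 genes tested, but 0 were called in any tissue, with 4, 1, 3 and 0 higher at an unadjusted p under 0.05, and the summed levels of the groups overlapped in all 4. In the stomach, squamous markers summed to 102 to 261 CPM in the controls and 469 to 1326 after SN-011, and 0 of their 5 genes passed the adjusted test there (5 at an unadjusted p under 0.05). Whether any of these libraries or markers takes part in the changes of the 5 genes was not tested. Trex1 had 0 counts in every sample and overlaps Atrip on the same strand, so its count does not check the genotype.

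Tcp11l2 had the largest change after SN-011 of the 5 in heart and muscle. Its level, in CPM scaled by TMM over all 24 samples, was 65.9, 86.1 and 66.3 in the 3 control hearts and 165, 154.4 and 119 in the 3 SN-011 hearts. In muscle it was 160, 125 and 84.0 in the controls and 423, 218 and 359 after SN-011. The SN-011 samples lay above every control in both tissues, and the lowest SN-011 muscle was the library with few detected genes. In stomach the controls were at 17.8, 19.4 and 25.1 CPM and the SN-011 samples at 37.4, 26.8 and 31.8. In tongue they were at 49.5, 52.4 and 36.2 and at 71.7, 75.9 and 57.9. Again the groups did not overlap, so Tcp11l2 was separated in 4 of 4 tissues. The log2 fold changes, from edgeR's fit within each tissue, were 1.01 ± 0.16 (SE, n = 3 per group) in heart, 0.65 ± 0.25 in stomach, 1.50 ± 0.29 in muscle and 0.57 ± 0.18 in tongue. Leaving out any 1 sample kept each of them positive, between 0.42 and 1.75. Of the 2 other members of its family, Tcp11l1 was at -0.01 in heart, -0.18 in stomach, 1.04 in muscle and -0.25 in tongue, and Tcp11 could be tested only in stomach (0.14) and tongue (0.76), none of them past the threshold.

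Txnip was the most abundant of the 5. In muscle it was at 1812, 1151 and 1418 CPM in the controls and at 2531, 2230 and 2278 after SN-011, without overlap. In stomach the controls were at 734, 394 and 392 CPM and the SN-011 samples at 637, 763 and 751. In tongue they were at 581, 277 and 333 and at 350, 488 and 504. Control replicate 1, the female library, was the highest control in both, as it was in muscle and in heart. In heart the controls were at 733, 637 and 600 CPM, within reach of the SN-011 samples at 786, 713 and 700. The log2 fold changes were 0.17 ± 0.14 in heart, 0.54 ± 0.37 in stomach, 0.77 ± 0.19 in muscle and 0.17 ± 0.30 in tongue (SE, n = 3 per group). Without control replicate 1 they were 0.23, 0.85, 0.97 and 0.56, and without control replicate 2 the tongue value fell below 0, to -0.04. With library size alone the heart value was 0.015. The antisense gene Gm15441 shares 606 exon bases with Txnip, but it had at most 55 counts in any sample.

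Tmem140 was at 70.4, 55.4 and 43.4 CPM in the control muscles and at 168, 50.4 and 165 after SN-011. The middle value is again the muscle library with few detected genes; without it the log2 fold change rose from 1.22 ± 0.41 (SE, n = 3 per group) to 1.56. In stomach Tmem140 was low, at 2.77, 3.4 and 2.51 CPM in the controls and 4.99, 4.60 and 6.11 after SN-011, groups that did not overlap (0.89 ± 0.38). In heart it was at 13.7, 18.2 and 13.6 CPM in the controls and at 22.3, 17.2 and 28.4 after SN-011 (0.58 ± 0.21), and in tongue at 8.92, 9.58 and 4.33 against 7.70, 7.57 and 11.1 (0.21 ± 0.34). Without SN-011 replicate 3 the heart value fell to 0.37, and the tongue value turned to -0.08 without control replicate 3. Cyren, on the opposite strand, shares 2168 exon bases with Tmem140 and moved with it: in stomach it was at 2.28 to 3.87 CPM in the controls and 7.16 to 7.89 after SN-011, and in muscle at 8.64 to 11.9 and 8.06 to 26.5, with the low value again in SN-011 replicate 2. The paper's methods describe strand-specific libraries. Whether counting used the strand is not given in the sources used here, so reads of the 2 genes may not have been told apart.

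The changes of Kiz and Zdhhc14 were smaller. Kiz was at 28.2, 36.3 and 32.0 CPM in the control hearts and at 39.7, 47.6 and 36.6 after SN-011, which put all SN-011 hearts above the controls by a narrow margin (0.37 ± 0.14, SE, n = 3 per group). In muscle it went from 26.8, 34.2 and 33.6 to 39.6, 38.0 and 35.1 CPM (0.35 ± 0.17), and in stomach (0.19 ± 0.26) and tongue (0.09 ± 0.20) the groups overlapped. Without tongue control replicate 3, at 12.6 CPM the lowest of its group, the tongue value was -0.10. Zdhhc14 overlapped in every tissue. Its control samples lay between 5.59 and 8.16 CPM in heart and its SN-011 samples between 8.14 and 10.4 (0.33 ± 0.21). In stomach the ranges were 3.02 to 4.96 and 4.82 to 6.56 CPM (0.57 ± 0.37), and in tongue 2.82 to 6.45 and 4.23 to 8.06 (0.57 ± 0.39). In muscle they were 7.59 to 11.3 and 5.37 to 13.1 CPM (0.15 ± 0.39), and scaling by library size alone turned that value to -0.07. The tongue value was 0.98 without control replicate 1 and 0.32 without control replicate 2. Library size alone also lowered Kiz to 0.22 in heart and 0.11 in muscle. Leaving out 1 sample gave 0.043 to 0.32 for Kiz in stomach and 0.19 to 0.41 for Zdhhc14 in heart.

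Over the 20 combinations of gene and tissue, all SN-011 samples lay above all controls in 8: 4 of Tcp11l2, 2 of Kiz, and 1 each of Txnip and Tmem140. Among all genes tested this held for 13.7% in heart, 17% in stomach, 11.5% in muscle and 9.79% in tongue, and since direction chose the 5 genes, nothing is read from the comparison. Without control replicate 1 of each tissue it held in 13 of 20, and without muscle SN-011 replicate 2 in 10. With fewer samples any gene separates more easily. No share of all genes was computed for these smaller sets, so the higher counts are not read as a result. All 5 genes stayed positive in all 4 tissues in both cases.

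**Figure D2:**
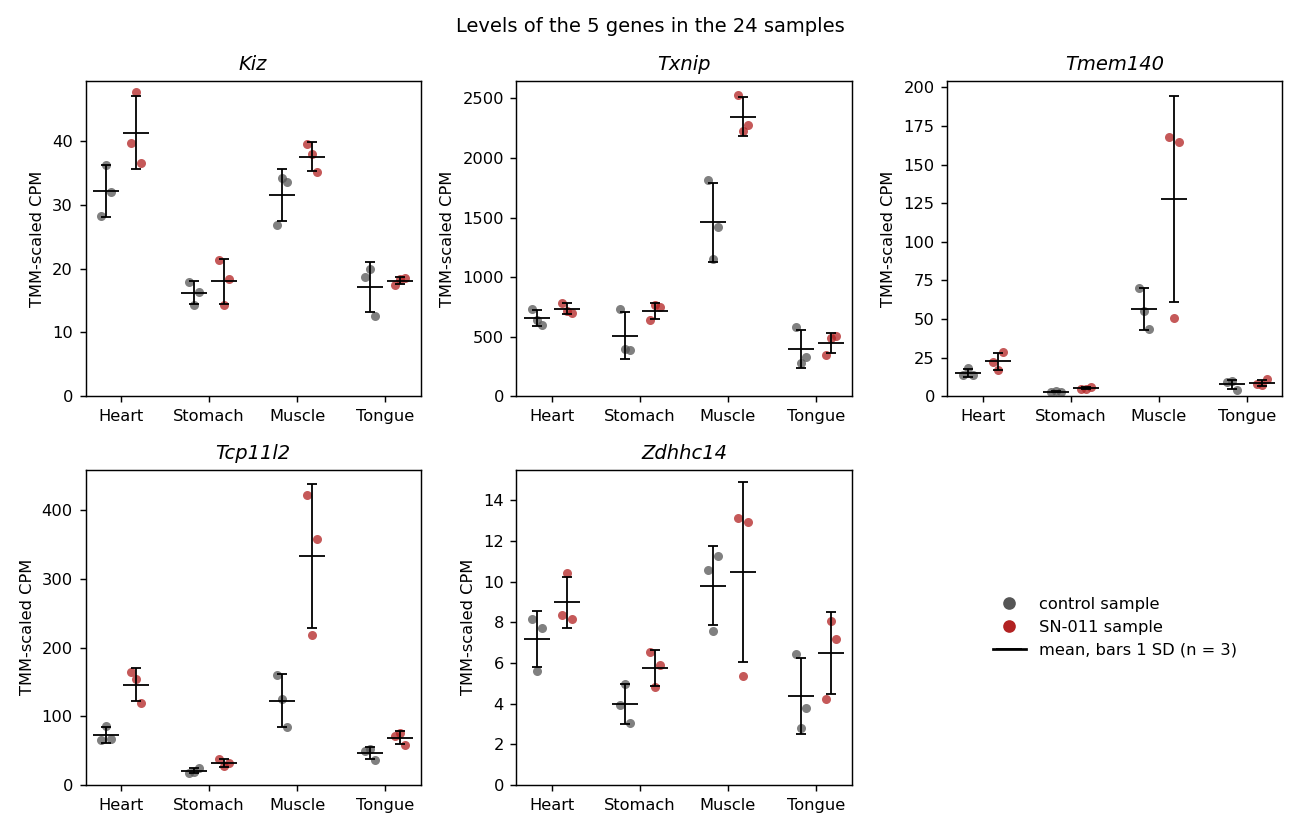
TMM-scaled CPM of the 5 genes in each of the 24 samples, one panel per gene, with tissues on the horizontal axis; dots are samples (grey control, red SN-011), horizontal marks are means and bars are 1 SD (n = 3). Tcp11l2 is separated in every tissue, and 1 muscle SN-011 sample lies far below the other two for Tmem140 and Zdhhc14.

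The 5 genes form the edge of a list that mostly moved the other way. A positive log2 fold change in all 4 tissues was seen in 3.25% of the M7core genes tested in all 4 tissues, against 13.1% of all 13198 genes so tested. Of the 41 M7core genes in the interferon modules 0 were positive and 36 were negative in all 4, and of the 113 outside them 5 were positive and 60 negative. The value that put Kiz just inside the rule was its 0.09 in tongue. Just outside were Ifi205, a gene of the PYHIN family (0.15 in heart, 0.59 in stomach, 0.34 in muscle and -0.05 in tongue), and Calcoco1, a coactivator and autophagy receptor (0.46, 1.77, 0.41 and -0.07). Rdm1, Cyp4v3 and Thrap3 came next, with lowest values of -0.08, -0.09 and -0.12, but had 2, 1 and 2 positive tissues. Standard errors of the members ran from 0.14 to 0.41, so the border does not separate genes by more than the error of 1 value; leaving out control replicate 1 of every tissue admitted 7 M7core genes, the 5 with Ifi205 and Bcl2l1, an anti-apoptotic gene.

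**Figure D3:**
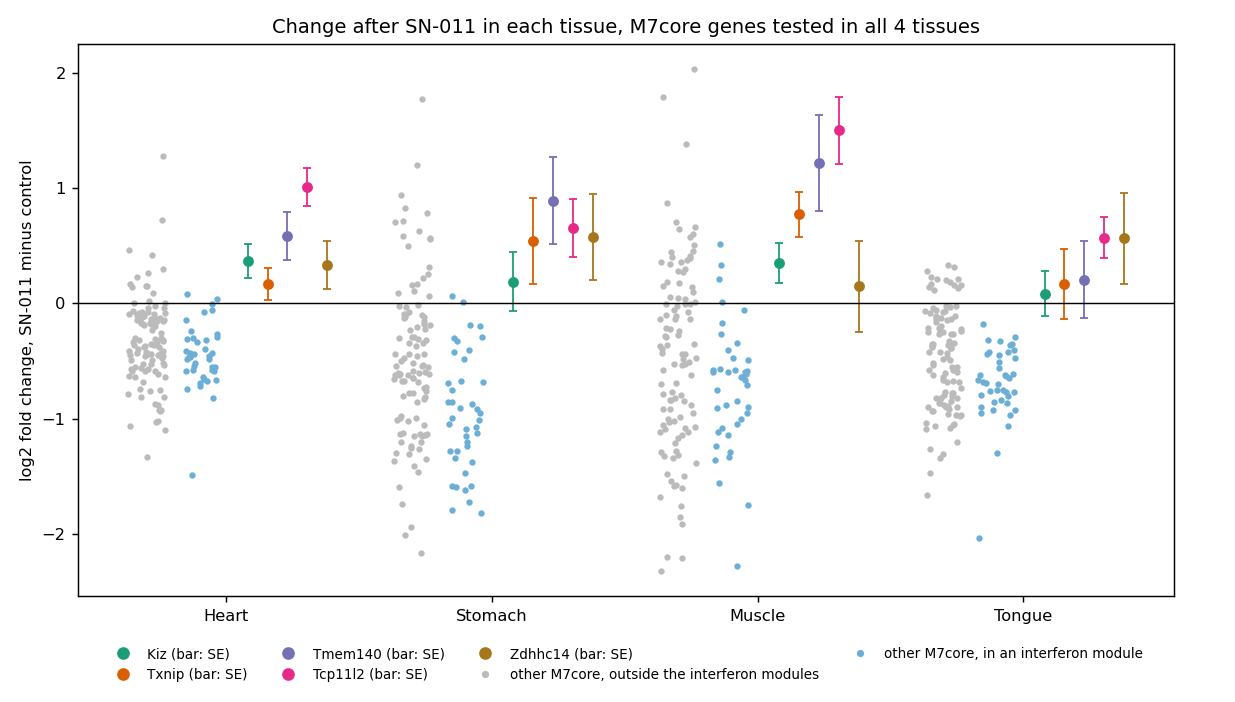
Log2 fold change after SN-011 (vertical axis) in heart, stomach, muscle and tongue for the M7core genes tested in all 4 tissues; coloured dots with bars are the 5 genes with their SE, grey dots the other M7core genes outside the interferon modules and blue dots those inside. The 5 genes lie above 0 in each tissue by construction, while most blue dots lie below 0.

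Differences between control tissues were not used to choose the 5 genes, although the same control samples entered the fold changes that were. Control muscle had the highest mean for Txnip, Tmem140, Tcp11l2 and Zdhhc14. For Kiz, heart (32.2 ± 4.1 CPM, SD, n = 3) and muscle (31.6 ± 4.1) did not pass the joint test (adjusted p = 0.945, but heart was higher by 0.86 with adjusted p = 0.00435 when scaled by library size alone), and both exceeded tongue (17.1 ± 3.9) and stomach (16.2 ± 1.8). In a joint edgeR quasi-likelihood fit of all 24 samples, with Benjamini-Hochberg adjustment over 19731 genes, all 5 genes were higher in control muscle than in stomach (24.3% of all genes were called in that direction) and all 5 were higher than in tongue (18.1%). With library size alone, Kiz (adjusted p = 0.534) and Zdhhc14 (adjusted p = 0.254) lost the call against stomach, and Kiz (adjusted p = 0.832), Tcp11l2 (adjusted p = 0.089) and Zdhhc14 (adjusted p = 0.501) that against tongue. Against heart, 3 of the 5 were called, all higher in muscle (16.7%). Heart exceeded stomach for Kiz, Tmem140 and Tcp11l2 (21% of all genes) and tongue for Kiz and Tmem140 (13.5%), and tongue exceeded stomach for Tmem140 and Tcp11l2 (20.0%).

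Tmem140 had the steepest gradient. It rose from 2.89 ± 0.46 CPM in stomach through 7.61 ± 2.86 in tongue and 15.2 ± 2.7 in heart to 56.4 ± 13.5 in muscle (SD, n = 3), and each step passed the test: tongue over stomach by 1.40 on the log2 scale (adjusted p = 0.00616), heart over tongue by 0.99 (adjusted p = 0.0429) and muscle over heart by 1.89 (adjusted p = 0.000396). The heart-to-tongue step did so by little: it missed the threshold in 5 of the 6 fits that left out 1 control sample of the pair (adjusted p = 0.0549 to 0.206), and held without tongue control replicate 2. Tcp11l2 followed the same order, 20.8 ± 3.8 CPM in stomach, 46.0 ± 8.7 in tongue, 72.8 ± 11.5 in heart and 123 ± 38.0 in muscle. Its muscle mean exceeded stomach by 2.56 (adjusted p = 1.03e-07), tongue by 1.42 (adjusted p = 0.000164) and heart by 0.76 (adjusted p = 0.0250), whereas heart and tongue did not pass (0.66, adjusted p = 0.0547). The muscle-to-heart difference of Tcp11l2 rests on the scaling: with library size alone it turned to 0.07 toward heart (adjusted p = 0.861), and it also missed the threshold with DESeq2's size factors (0.60 toward muscle, adjusted p = 0.061). Leaving out muscle control replicate 1 or 2 or heart control replicate 1 or 3 lost the call as well (adjusted p = 0.0589 to 0.157), and the control samples of the 2 tissues overlapped.

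Txnip was at 1460 ± 333 CPM in control muscle, 656 ± 69 in heart, 507 ± 197 in stomach and 397 ± 162 in tongue. Muscle exceeded heart by 1.15 (adjusted p = 0.00284), stomach by 1.53 (adjusted p = 0.000116) and tongue by 1.88 (adjusted p = 2.15e-05), and the 3 other tissues did not pass against each other (adjusted p = 0.0521 to 0.341). With library size alone, Txnip in heart against muscle was at -0.32 and lost the call (adjusted p = 0.305). Without tongue control replicate 1, heart (adjusted p = 0.00546) and stomach (adjusted p = 0.0493) exceeded tongue, and without stomach control replicate 1 heart exceeded stomach (adjusted p = 0.0307). Zdhhc14 was at 9.81 ± 1.96 CPM in muscle, 7.16 ± 1.38 in heart, 4.36 ± 1.88 in tongue and 3.98 ± 0.97 in stomach; muscle exceeded stomach by 1.30 (adjusted p = 0.00697) and tongue by 1.17 (adjusted p = 0.0183), and no neighbouring pair in this order passed. The muscle-to-tongue call of Zdhhc14 was lost without muscle control replicate 1 or 3 or tongue control replicate 2 or 3 (adjusted p = 0.0536 to 0.0989). Per kilobase of exon, control muscle had 468 CPM per kb of Txnip, 35.7 of Tcp11l2, 13.9 of Kiz, 9.64 of Tmem140 and 3.19 of Zdhhc14, so Txnip stood far above the others.

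The tissue differences were seen again in the SN-011 samples. All 30 differences, 5 genes in 6 pairs of tissues, had the same sign there. Of the 20 that passed in the controls, 17 passed in the SN-011 samples. Those that did not were muscle against stomach and against tongue for Zdhhc14 and tongue against stomach for Tmem140. The share of all genes that kept sign or call was not computed, so these counts show nothing particular to the 5 genes.

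Most other M7core genes had the opposite tissue pattern, but some shared that of the 5 genes. The median log2 difference of the 5 genes was 0.76 for muscle minus heart, 1.53 for muscle minus stomach and 1.42 for muscle minus tongue. For the other M7core genes it was -1.38, -0.82 and -1.14, and for all genes -0.11, -0.12 and -0.08. Of the genes just outside the rule, Calcoco1 (1.05, 3.44 and 1.30), Rdm1 (0.59, 1.67 and 0.45) and Thrap3 (0.68, 0.43 and 0.27) also lay above 0 in all 3 comparisons. Ifi205 (-0.73, 1.65 and 0.23) and Cyp4v3 (-1.54, -1.35 and -0.74) did not. Muscle had the highest control mean for 4 of the 5 genes and for 9 of the others, and the lowest mean for 0 of the 5 and 105 of the others; over all 19731 genes it was highest for 5460 and lowest for 6526. Txnip, Tmem140 and Tcp11l2 were called higher in control muscle than in each of the 3 other tissues, as were 1.95% of the other M7core genes (Calcoco1, Tor1aip1 and Ccdc6) and 10% of all genes. Conversely, 39.6% of the other M7core genes were called lower in muscle than in each other tissue, as were 5.93% of all genes. Muscle libraries put 23.8% to 28.6% of their counts into 10 genes, and scaling by library size alone moved the median of all genes to 0.94 in favour of heart, 0.91 of stomach and 0.88 of tongue over muscle; under that scaling Tmem140 alone of the 5 was still called higher in muscle than in each other tissue.

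**Figure D4:**
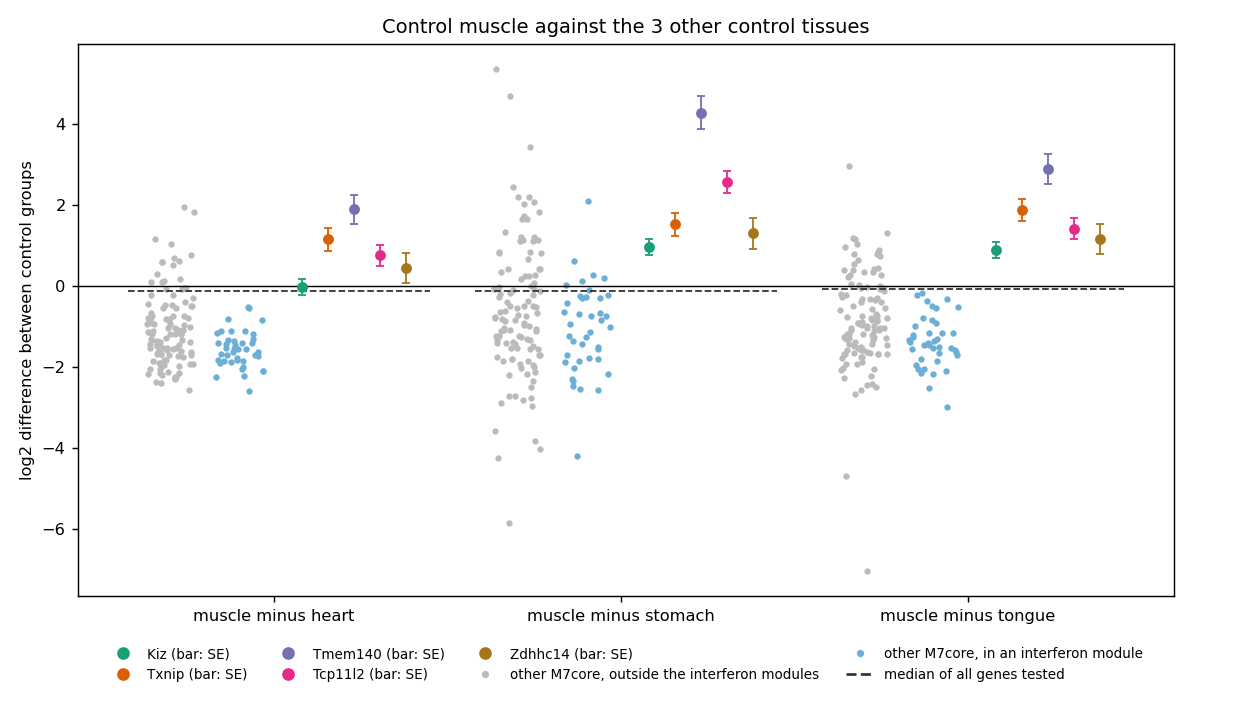
Log2 difference between control muscle and control heart, stomach or tongue (vertical axis, positive values higher in muscle) for the 5 genes with their SE, for the other M7core genes (grey outside, blue inside the interferon modules) and, as a dashed line, the median of all 19731 genes. Apart from Kiz against heart, at -0.03, the 5 genes lie above 0 in all 3 comparisons, and most other M7core genes lie below.

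Genes with related regulation were read from lists, of which the FoxO targets had the most calls. The lists were chosen with earlier results of these data known. Their counts beside the shares of all genes are therefore a description and no test of a list. In heart, 5 of 18 FoxO targets were called higher after SN-011 and 0 lower, where 0.52% of all genes tested were called higher and 0.328% lower. They were Bnip3, a mitophagy receptor (58.8 to 175 CPM, log2 fold change 1.58 ± 0.16, SE, n = 3 per group, edgeR adjusted p = 0.00894), Sesn1, a stress-induced inhibitor of mTORC1 (1.16 ± 0.12, adjusted p = 0.0111), Klf15, a factor of amino acid catabolism (1.25 ± 0.15, adjusted p = 0.0182), Gabarapl1, an autophagosome protein (1.17 ± 0.17, adjusted p = 0.0281), and Trim63, the ubiquitin ligase MuRF1 (1.31 ± 0.20, adjusted p = 0.0281). The list's median log2 fold change was 0.56 in heart, 0.43 in stomach, 1.15 in muscle and 0.31 in tongue, beside -0.01, 0.00, -0.08 and -0.01 for all genes. In stomach, muscle and tongue edgeR's quasi-likelihood test called 0 of the 18. At an unadjusted p under 0.05, 7, 12 and 6 were higher and 0, 2 and 1 lower. In the same order, edgeR's exact test called 6, 9 and 2 higher and DESeq2 5, 9 and 4. Of all genes, in either direction, the exact test called 1835 of 17031 in stomach, 479 of 14198 in muscle and 253 of 16587 in tongue. DESeq2 called 2389, 880 and 418 of them. The heart count of FoxO targets was 0 without SN-011 replicate 1 or 2, 1 without SN-011 replicate 3, 3 without control replicate 3 and 9 without control replicate 2, the heart library with the most gastric markers. In the fit of all 24 samples it was 0.

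Glucocorticoid targets had positive medians of 0.80 in heart, 1.18 in stomach, 0.92 in muscle and 0.69 in tongue, and 1 of 14 was called: Mt1, a metallothionein, rose in heart (1.56 ± 0.27, SE, n = 3 per group, edgeR adjusted p = 0.0403) and was at -0.80 ± 0.67 in stomach. At an unadjusted p under 0.05, 7 of 14 were higher in heart, 8 of 14 in stomach, 6 of 13 in muscle and 7 of 14 in tongue, beside 10.8%, 13.2%, 8.96% and 5.17% of all genes. In stomach, Pdk4, a kinase that shuts down pyruvate dehydrogenase, was at 22.1 ± 12.7 CPM (SD, n = 3) in the controls and 107 ± 8.6 after SN-011, and Angptl4, an inhibitor of lipoprotein lipase, at 11.9 ± 7.03 and 76.6 ± 18.4, both with an edgeR adjusted p of 0.0618. These 2 were named after their values were seen. Of the glucose-sensing list, Mlxipl, which encodes ChREBP, rose in heart (0.83 ± 0.13, adjusted p = 0.0332) and was at -0.82 ± 0.18 in muscle, below the controls in every sample. The list's medians were 0.04, -0.18, -0.28 and -0.02, but its genes were split, with 6, 4, 4 and 5 of 11 positive. At an unadjusted p under 0.05, 4, 1, 2 and 1 were higher and 1, 0, 1 and 1 lower. In heart, edgeR's exact test and DESeq2 each called 3 of the 11 higher, beside 918 and 1361 of all 16151 genes in either direction. In muscle each called 2 higher and 1 lower. Arrdc4, the other arrestin under MondoA and ChREBP and named after its values were seen, was at -0.35 in heart, -0.52 in stomach, -0.99 in muscle and -0.91 in tongue, against the direction of Txnip in all 4. Other genes of the list, also named after their values were seen, went both ways. Mlxip, which encodes MondoA, was at 0.24, 0.35, 0.81 and 0.12, and Acacb at 0.83, -0.28, 0.79 and 0.67. Mlx was at -0.21, -0.55, -0.28 and -0.20. Arrdc3, the alpha-arrestin with the largest mean change, was at 0.32, 1.14, 2.43 and 0.50, and did not pass edgeR's quasi-likelihood test in any tissue, though the exact test and DESeq2 both called it higher in stomach and muscle. Arrdc5, tested in muscle alone, was at 0.604 CPM in the controls and 1.27 after SN-011 (1.06 ± 1.44). Over the alpha-arrestins tested the medians were 0.05, 0.24, 1.06 and 0.33. The muscle median is the value of Arrdc5 itself, and the others ran from -0.99 to 2.43 there. In the circadian list, Nr1d1, the repressor REV-ERBalpha, fell in heart (-1.30 ± 0.23, adjusted p = 0.0444) and was at -1.71, -0.84 and -2.37 in stomach, muscle and tongue. That list's medians were 0.20, 0.50, 0.11 and 0.08.

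By edgeR's quasi-likelihood test, 0 genes of the families and partners of the 5 were called in any tissue, whereas other tools called some. Of 14 thioredoxin-system genes, which include the partners of TXNIP, 10 had a positive change in heart, 0 in stomach, 13 in muscle and 1 in tongue, with medians of 0.21, -0.79, 0.34 and -0.18. At an unadjusted p under 0.05, 8 of them were lower in stomach and 5 higher in muscle, the exact test called 4 lower in stomach and 2 higher in muscle, and DESeq2 6 and 3. The members with the largest mean change were Prdx4 and Glrx. Prdx4 was at -0.43 in heart, -1.22 ± 0.26 in stomach, 0.67 in muscle and -0.31 in tongue. Glrx was at -0.32, -1.27, -0.48 and -2.60 ± 0.76 in the same order. Its tongue controls were uneven, at 197 ± 160 CPM (SD, n = 3), and overlapped the SN-011 samples. Of the lists that follow, DESeq2 called 2 ZDHHC genes higher and 2 lower in stomach, 2 RelB and NF-kB genes lower in heart and 3 IRF genes lower in heart, among others. ZDHHC palmitoyltransferases had medians of -0.07, -0.20, -0.14 and -0.06 in heart, stomach, muscle and tongue, with Zdhhc23 at 1.51 ± 0.33 in muscle and Zdhhc22, tested in stomach alone, at 0.133 and 0.675 CPM in control and SN-011 stomachs. That control level of Zdhhc22 lay under the limit of detection, so its log2 fold change (2.49 ± 1.12) is uncertain. Centrosome genes had medians of -0.19, 0.06, -0.37 and 0.07, and in heart Plk1 was at -1.19 ± 0.32 and Cep72 at -0.67 ± 0.30. RelB and NF-kB subunits had medians of -0.34, 0.08, 0.05 and -0.35, with Traf3 at -0.53 ± 0.13 and Birc3 at -0.43 ± 0.25 in heart. IRF factors had medians of -0.61, -0.37, -0.33 and -0.37, with Irf1 at -0.75 ± 0.25 in heart. Over all lists, edgeR's quasi-likelihood test called 7 genes higher and 1 lower of 123 in heart and 0 of 125 in stomach, 121 in muscle and 124 in tongue, where 0.0%, 0.00704% and 0.0% of all genes were called higher and 0.0%, 0.00704% and 0.0% lower. At an unadjusted p under 0.05, 24 were higher and 16 lower in stomach, 30 and 10 in muscle and 20 and 15 in tongue, and 32 and 17 in heart. The shares of all genes called lower at that threshold were 11.6% in heart, 11.4% in stomach, 5.8% in muscle and 7.33% in tongue. DESeq2 called 18 and 9 of the list genes in stomach, 21 and 4 in muscle, and 8 and 4 in tongue. Of all genes, in either direction, DESeq2 called 2389 of 17031 in stomach, 880 of 14198 in muscle and 418 of 16587 in tongue. In heart it called 1361 of 16151. The exact test called 1835 of all genes in stomach, 479 in muscle, 253 in tongue and 918 in heart. Calls by these 2 tools were thus far more frequent among all genes too.

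**Figure D5:**
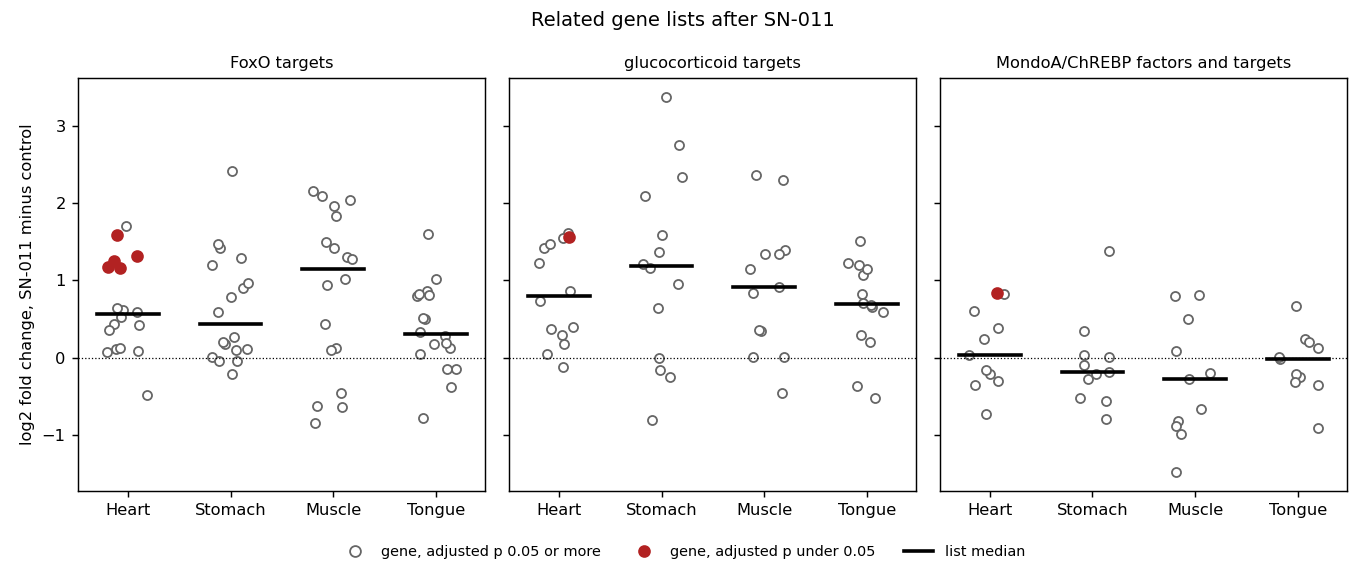
Log2 fold change after SN-011 (vertical axis) of each tested gene of the FoxO, glucocorticoid and glucose-sensing lists in the 4 tissues; filled red dots have an adjusted p under 0.05, open dots do not, and thick lines are list medians. The 7 red dots lie in heart, and the medians of the first 2 lists lie above 0 in every tissue.

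Within groups the 5 genes did not vary as one. After the mean of each tissue and treatment was subtracted from log2 CPM, the 10 pairs of genes had a median r of 0.20 over the 24 samples, or 0.12 without muscle SN-011 replicate 2. The highest were Tmem140 with Tcp11l2 (r = 0.59, or 0.35 without muscle SN-011 replicate 2) and Txnip with Zdhhc14 (r = 0.52). Tmem140 with Zdhhc14 fell from 0.44 to 0.02 without that library, and the lowest was Txnip with Tcp11l2 (r = -0.01). All are descriptions over samples that share library effects. Tmem140 was the gene that varied most with the interferon-module M7core genes (r = 0.62 with their mean, 0.39 without muscle SN-011 replicate 2), while r was -0.20 for Kiz, -0.23 for Txnip, 0.17 for Tcp11l2 and 0.35 for Zdhhc14. Without that library Tcp11l2 turned to -0.17 and Zdhhc14 fell to 0.04. With the M7core genes outside the modules Tmem140 had an r of 0.70, or 0.46 without that library.

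Among the 13198 genes tested in all 4 tissues, those most like Tcp11l2 in these deviations were Ptgfr (r = 0.88), a prostaglandin receptor, Gabarapl1 (r = 0.87), one of the FoxO targets called in heart, and Fbxo30 (r = 0.87), a ubiquitin ligase. For Txnip they were Tecpr1 (r = 0.90), an autophagy gene, Car4 (r = 0.89), a carbonic anhydrase, and Adh1 (r = 0.87), an alcohol dehydrogenase. Kiz was nearest to As3mt (r = 0.85), Nqo2 (r = 0.78) and Gm29216 (r = 0.77), Tmem140 to 4931440P22Rik (r = 0.89), Cnn3 (r = 0.89) and Morf4l1-ps1 (r = 0.88), and Zdhhc14 to Lrp1 (r = 0.85), Ctps2 (r = 0.84) and Ror1 (r = 0.84). None (0) of these 15 is in M7core. These genes were picked as the highest of many correlations with genes that the sign of the change had chosen. Spread between samples that a neighbour shares with such a gene can also shift the neighbour's own change. Nothing is therefore read from the following values. The change after SN-011 was positive in all 4 tissues for 5 of the 15 (Tecpr1, Car4, Gabarapl1, Fbxo30 and Ctps2), beside 13.1% of all genes. Gabarapl1 was at 1.17, 0.90, 2.04 and 0.83 and Car4 at 1.54, 0.84, 1.32 and 0.72 in heart, stomach, muscle and tongue.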

How the data were processed

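RNA-Seq of poly(A) RNA was measured in 24 samples of 8 groups. According to the paper's methods, the authors trimmed reads with Trimmomatic, mapped them with HISAT2, kept uniquely mapped pairs and counted them per gene with featureCounts; the submitters' processing notes name HTSeq and build mm10 instead. Versions and the strand setting of the counting are not given in the sources used here. The deposited values are raw counts for 54532 genes, of which 54495 were matched to GENCODE M21 (GRCm38), the source of positions and exon lengths.

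SN-011 was compared with control in each tissue, and control tissues in pairs in 1 joint fit of all 24 samples, by edgeR 4.0.16 (quasi-likelihood test, filterByExpr with a minimum count of 10, TMM, prior count 0.125, Benjamini-Hochberg, adjusted p under 0.05) in R 4.3.3. The fits were tested on simulated data. DESeq2 1.42.0, other scalings, filters and left-out samples were tried. Printed levels are CPM from the joint TMM scaling, whereas fold changes come from each tissue's own fit, so they can differ slightly from ratios of means. Total counts of 14253416 to 18443329 limit precision for counting error only.

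The members and lists were chosen with earlier results of these data known. Named were the 5 genes, the 5 M7core genes nearest to the rule, the 3 genes most correlated with each member, and from each of 11 pathway lists every called gene or otherwise the 2 with the largest mean change, of which 1 is not reported here. Replicate numbers did not pair SN-011 with control samples. Between control tissues, deviations of same-numbered samples correlated above 0.1 in all 3 pairs for heart with muscle (r = 0.24 to 0.57) and muscle with tongue (r = 0.18 to 0.46). The labels give no reason. The replicate block changed no call of the 5 genes in these 2 comparisons. Heart with tongue narrowly missed that mark (r = 0.09 to 0.51). There the block added the call of Txnip (edgeR quasi-likelihood adjusted p = 0.0521 without it and 0.00783 with it).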

Additional observations from a re-analysis of the deposited data

How the results depend on the processing

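Genes called after SN-011 numbered 137 in heart, 0 in stomach, 2 in muscle and 0 in tongue, and these counts depended on the processing. In heart they were 249 with library size alone, 1888 with no filter on low counts, 265 with at least 10 counts in every sample, 242 with the replicate block, 918 by edgeR's exact test, 1361 by DESeq2 and 1 in the joint fit. In stomach they were 1368 without the filter, 126 with the count minimum, 181 with the block, 1835 by the exact test, 2389 by DESeq2 and 2738 in the joint fit. In muscle they were 1 with DESeq2's size factors and with library size alone, 110 without the filter, 75 with the count minimum, 0 with the block, 479 by the exact test, 880 by DESeq2 and 474 in the joint fit. In tongue they were 18 without the filter, 253 by the exact test, 418 by DESeq2 and 4 in the joint fit. Leaving out 1 sample gave 1 to 787 in heart (787 without control replicate 2), 0 to 64 in stomach, 0 to 1103 in muscle (1103 without SN-011 replicate 2) and 0 to 2135 in tongue (2135 without control replicate 1); the causes were not tested. Same-numbered control and SN-011 samples did not deviate together in every tissue, so the block is only a number there.

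Of the 5 genes' changes after SN-011, 7 values under another setting turned negative. Leaving out 1 sample gave -0.10 to 0.20 for Kiz in tongue, -0.045 to 0.56 for Txnip in tongue, -0.080 to 0.39 for Tmem140 in tongue and -0.016 to 0.41 for Zdhhc14 in muscle, where library size alone gave -0.065. Library size alone also moved the median of all genes after SN-011 to -0.16 in heart, 0.18 in stomach and -0.31 in muscle. Tcp11l2 in control heart against muscle turned to 0.071 under it. FoxO targets called higher in heart numbered 10 without the filter, 8 by the exact test, 10 by DESeq2, 0 in the joint fit and 0 to 9 with 1 sample left out. Called higher in muscle than in each other tissue were 1 of the 5 genes, 0 other M7core genes and 636 genes in all with library size alone, and 8 other M7core genes in the SN-011 samples. Of the alternatives for the tissue differences of the 5 genes, 351 kept direction and call, 26 lost and 12 gained the call. With the block Txnip was called between heart and tongue (adjusted p = 0.00783), and no other call of the 5 genes changed.

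With 3 samples a group, small changes could not be separated from their spread.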
